A study of Mus musculus with 24 samples.

Results

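The 35 genes described here encode stromal matrix of the embryonic jaw: 19 collagen chains, 6 small leucine-rich proteoglycans and 10 matricellular or other matrix proteins. Their symbols were given as a list, and every one was found on the array. Each gene was followed through the probe set with the highest mean over 24 arrays, and all 35 were among the 13850 genes tested. Prelp exceeded the filter on low signal on 19 arrays, and the other 34 members exceeded it on all 24. Tissue came from C57B6 mouse embryos at embryonic day 13.5 and was hybridised to Affymetrix mouse expression arrays, which measure each gene by the brightness of short probes. The mutant embryos came from matings of Wnt1cre;Tgfbr2fl/+ with Tgfbr2fl/fl mice. In them Cre recombinase, driven by a Wnt1 promoter in the neural crest, deletes the type II TGF-beta receptor, while epithelium, muscle and vessel walls of other origin keep it. Mutants were picked by cleft palate and a calvarial defect, and the controls were their littermates, whose own Cre and floxed alleles are not given. Each genotype has 4 groups of 3 arrays, which are the distal and the proximal end of the mandible and the distal and the proximal end of the maxilla, making 8 groups. The 4 arrays that share a genotype and a replicate number are called a set below, which gives 3 mutant and 3 control sets. The labels do not say whether a set is 1 embryo or a pool, so the p-values cover the spread among these arrays alone, which may be partly technical.

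Fibrillar collagens I, III and V assemble into the banded fibres that give connective tissue its strength, and collagens XII, XIV and XVI sit on the fibre surface. Decorin, lumican and related leucine-rich proteoglycans bind the fibrils and control their spacing. Matricellular proteins such as tenascin C, periostin and the thrombospondins add little structure and act on how cells attach to and signal through the matrix. In the face most of this matrix is made by neural crest mesenchyme, and many of its genes respond to TGF-beta in cultured fibroblasts. Collagens VII and XVII differ from the rest, because epithelial cells make them to anchor themselves to the tissue beneath.

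All values are log2 expression as deposited, so a difference of 1 is a doubling of signal, and levels of different genes are not compared because each probe set has its own brightness. Replicate arrays correlated at 0.9696 to 0.9954 over the tested genes, and no 2 arrays were identical. The Gapdh control probes, which read RNA integrity as the 3′ minus the 5′ signal, stood at 0.46 and 0.54 in mutant sets 1 and 3, against 0.06 in mutant set 2 and 0.01 to 0.07 in the 3 control sets. Mutant sets 1 and 3 therefore stand apart, and the genotype calls are also given without them. The female transcript Xist and 3 Y-linked genes were both high in mutant sets 2 and 3, at 13.52 and 13.19 for Xist and 8.81 and 9.20 for the mean of the Y-linked genes. In control sets 2 and 3 Xist was high, at 13.68 and 13.65, and the Y-linked mean was 3.82 and 3.88. Mutant set 1 and control set 1 had low Xist, at 6.50 and 6.31, and high Y-linked means, at 10.01 and 9.97. Mutant sets 2 and 3 thus carried both signals, and each of the other 4 sets carried 1 of them. Of 3 Tgfbr2 probe sets, the one followed here ran from 12.20 to 12.68 (median 12.40) in mutant arrays, against 11.94 to 12.33 (median 12.10) in control arrays. Where that probe set lies relative to the deleted stretch is not given, so it does not check the labels. Prrx1, a transcription factor of jaw mesenchyme, had group means of 13.32 to 13.57 in mutant arrays and 13.34 to 13.56 in control arrays.

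For some members nearly all of the variance lay between groups and not between replicate arrays. The share of a gene's variance over 24 arrays that lay between the 8 groups reached 95.6% for Smoc2, 94.8% for Col7a1, 94.1% for Pcolce, 94.0% for Thbs2 and 93.5% for Col13a1. It was 6.46% for Thbs1, an activator of latent TGF-beta, whose group means spanned only 0.21. Col17a1 had the widest span of group means, 2.36, with Col7a1 at 2.14 and Smoc2 at 2.13. Prelp followed at 2.07, although only 64% of its variance lay between groups. The narrowest spans belonged to Col3a1 at 0.19, Thbs1 at 0.21, Postn at 0.25 and Col1a2 at 0.28.

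In the average over the 4 regions, 4 of the 35 members differed between genotypes, all higher in mutant jaws: Col6a3, Col12a1, Col23a1 and Smoc1. Over all tested genes 11.6% were called, 5.57% higher and 6.07% lower, so the members were called about as often as genes in general. A call is a Benjamini-Hochberg adjusted p under 0.05 in a limma model with the set as a random block. The median difference was 0.09 over the 35 members and 0.02 over all genes, and 27 members lay above 0. Col6a3, a chain of the beaded filament collagen VI, was higher by 0.31 ± 0.0838 (SE, adjusted p = 0.023). Col12a1, a fibril-associated collagen of dense connective tissue, was higher by 0.34 ± 0.0795 (adjusted p = 0.00957). Col23a1, a collagen that spans the cell membrane, was higher by 0.34 ± 0.0956 (adjusted p = 0.0285). Smoc1, a secreted calcium-binding matrix protein that antagonises BMP signalling in frog embryos, had the largest difference, 0.59 ± 0.164 (adjusted p = 0.0263), a 1.5-fold higher signal. These calls rest on few sets: none of the 4 was called when each set was reduced to 1 value, with adjusted p between 0.0624 and 0.0738, and none was called without control set 1 or without control set 3. Without mutant set 3 or without control set 2 only Col12a1 of the 4 was called. Some markers of other cell types moved with genotype too. Of 5 tested smooth muscle and pericyte markers 2 were higher in mutants, Pdgfrb at 0.30 ± 0.0622 (adjusted p = 0.00535) and Notch3 at 0.30 ± 0.0837 (adjusted p = 0.0255). The rest were not called and did not move together. Tagln was lower in mutants except in the proximal maxilla, with group means of 9.66 to 10.26 against 10.01 to 10.59. Acta2 had 12.30 to 13.52 against 11.67 to 13.40, and Rgs5 8.04 to 10.36 against 7.84 to 9.79. The summed log2 signal of that list was 13.49 to 14.51 on mutant arrays and 13.25 to 14.19 on control arrays. Of 6 endothelial markers 2 were lower, Pecam1 at -0.31 ± 0.0913 and Cldn5 at -0.42 ± 0.123, with sums of 12.02 to 12.46 on mutant arrays and 12.11 to 12.47 on control arrays. The list as a whole did not fall, with a median of -0.04. Cdh5, not called, was higher in mutants in all 4 regions, with group means of 10.74 to 10.84 against 10.45 to 10.57. Of 6 macrophage markers 1 was lower, Lyz2 at -1.11 ± 0.14, with sums of 11.28 to 12.07 on mutant arrays and 11.53 to 12.36 on control arrays. Their part in the members' values was not tested.

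**Figure D1:**
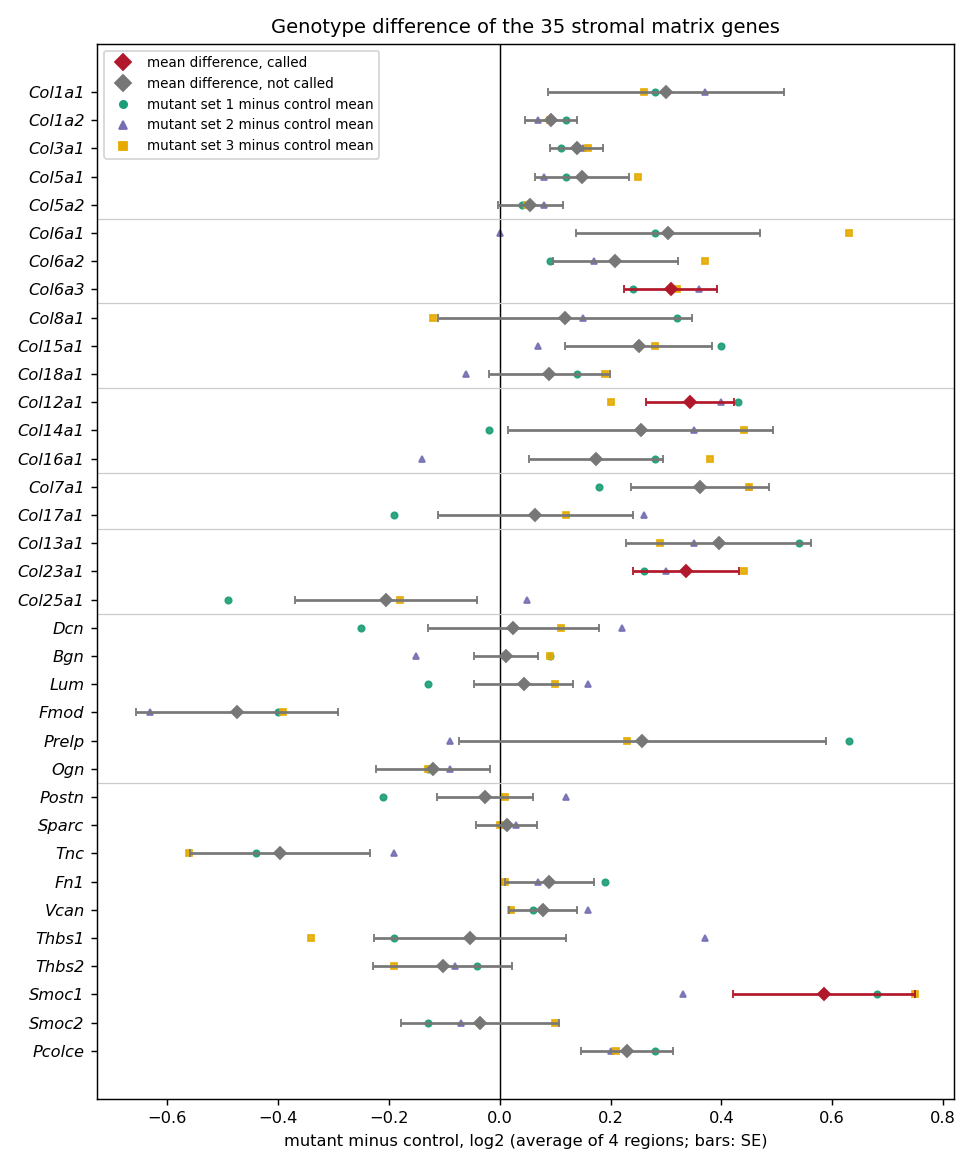
Mutant minus control difference of each of the 35 genes in log2 units, averaged over 4 regions, with the standard error as a bar and each mutant set's own difference from the control mean as a small symbol. Horizontal lines separate the roles, from fibrillar collagens at the top to matricellular genes at the bottom. The 4 called genes (red) lie between 0.31 and 0.59, and Thbs1 has mutant set 2 at 0.37 and mutant sets 1 and 3 at -0.19 and -0.34.

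In the mandible, Col6a3 stood at 13.25, 13.30 and 13.06 in the mutant distal end, against 12.86, 13.11 and 13.05 in the control distal end. The proximal mandible gave 13.30, 13.21 and 13.22 in mutants and 13.06, 13.06 and 12.97 in controls. In the maxilla the distal values were 13.00, 13.17 and 13.24 in mutants and 12.60, 12.44 and 12.59 in controls, and the proximal values were 12.75, 13.06 and 13.08 in mutants and 12.63, 12.71 and 12.88 in controls. The genotypes did not overlap in the proximal mandible and the distal maxilla, and they overlapped in the other 2 regions. In the distal maxilla alone the difference was 0.59 ± 0.113 (adjusted p = 0.00729), a 1.51-fold higher signal. Its 2 partner chains had differences of 0.30 ± 0.166 for Col6a1 and 0.21 ± 0.112 for Col6a2, with adjusted p of 0.253 and 0.242. Col6a1 differed among mutant sets, at 0.28, 0.00 and 0.63 above the control mean in sets 1, 2 and 3, and the 2 high sets are those with the raised Gapdh value, whose part in it was not tested.

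Col12a1 gave 12.09, 12.07 and 11.78 in the mutant distal mandible, against 11.61, 11.84 and 11.88 in the control. In the proximal mandible it gave 12.52, 12.47 and 12.32 in mutants, against 11.91, 12.13 and 11.88 in controls. The mutant distal maxilla had 12.33, 12.29 and 12.11 and the control 11.90, 11.61 and 11.85, and the mutant proximal maxilla had 12.19, 12.21 and 12.01 and the control 11.90, 11.84 and 11.91. Every mutant array exceeded every control array in 3 regions, and the distal mandible overlapped. Col12a1 was also called in the proximal mandible, at 0.46 ± 0.107 (adjusted p = 0.0222), and in the distal maxilla, at 0.46 ± 0.107 (adjusted p = 0.0181). A second Col12a1 probe set went the other way, at -0.15 in the average (adjusted p = 0.552), so the gene's result holds for 1 probe set only. The 2 other fibril-associated collagens were not called: Col14a1 had 0.25 ± 0.239 and Col16a1 0.17 ± 0.121.

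For Col23a1 the mutant distal mandible had 11.04, 10.85 and 11.19, against 10.60, 10.60 and 10.75 in the control. The proximal mandible had 10.56, 10.48 and 10.65 in mutants, against 10.43, 10.25 and 10.39 in controls. The mutant distal maxilla had 10.80, 11.20 and 11.11 and the control 10.80, 10.73 and 10.40, and the mutant proximal maxilla had 10.58, 10.61 and 10.75 and the control 10.36, 10.34 and 10.14. It was the 1 member among the 4 whose genotypes did not overlap in any of the 4 regions, although the distal maxilla met at 10.80 after rounding. Its 2 further probe sets had differences of 0.15 (adjusted p = 0.354) and 0.47 (adjusted p = 0.0755), both in the same direction. The other membrane collagens were not called: Col13a1 stood at 0.40 ± 0.167 (adjusted p = 0.131) and Col25a1 at -0.21 ± 0.164 (adjusted p = 0.457).

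Smoc1 gave 10.57, 10.31 and 10.84 in the mutant distal mandible, against 9.57, 9.88 and 9.45 in the control. The proximal mandible gave 10.00, 9.94 and 9.98 in mutants, against 9.23, 9.60 and 9.40 in controls. The mutant distal maxilla had 10.57, 9.61 and 10.18 and the control 9.72, 9.36 and 9.70, and the mutant proximal maxilla had 10.17, 10.02 and 10.55 and the control 9.90, 9.76 and 10.18. The genotypes separated at both ends of the mandible and overlapped at both ends of the maxilla. The 3 mutant sets lay 0.68, 0.33 and 0.75 above the control mean, and the 2 higher ones are the sets with the raised Gapdh value. Without mutant sets 1 and 3 the difference was 0.33 ± 0.132 (adjusted p = 0.0732), and with the Gapdh value of each array as a covariate it was 0.31 ± 0.14 (adjusted p = 0.106), so the call was lost both ways.

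**Figure D2:**
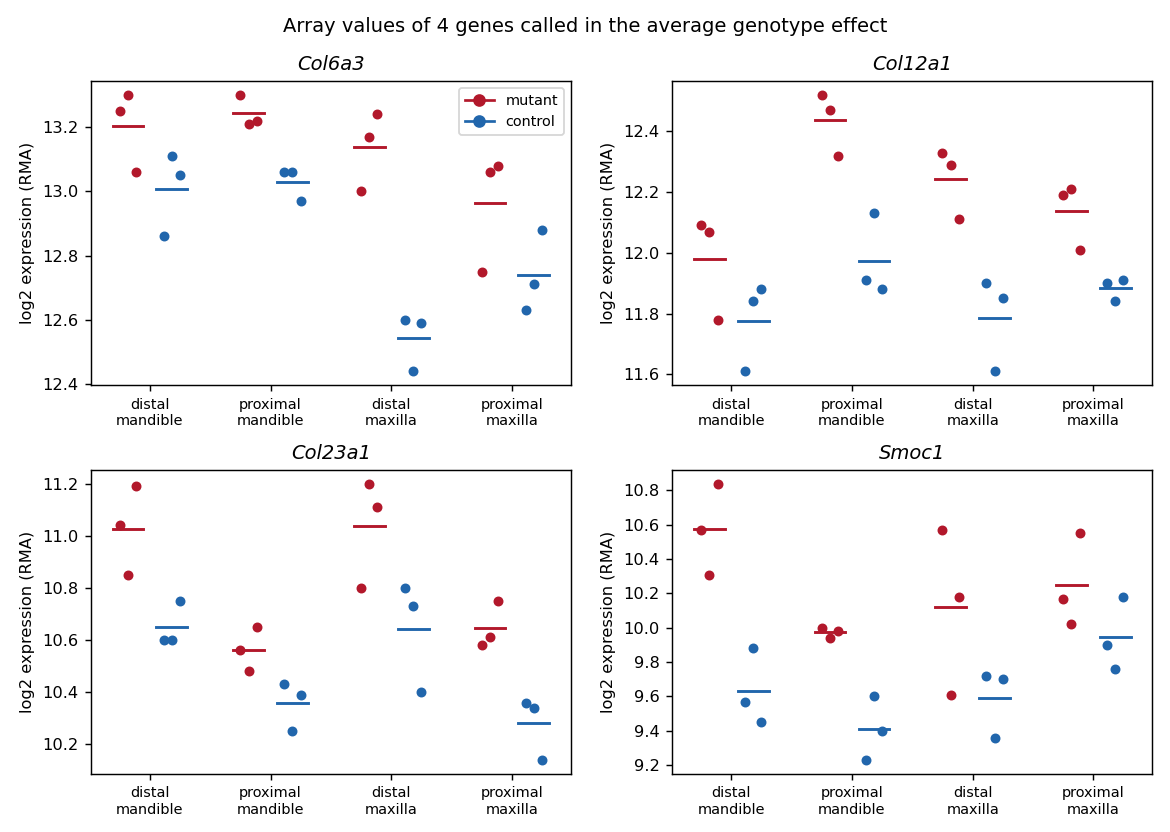
Log2 expression of Col6a3, Col12a1, Col23a1 and Smoc1 on each of 24 arrays, in mutant (red) and control (blue) jaws of 4 regions, with the mean of 3 arrays as a line. Col6a3 in the distal maxilla runs from 13.00 to 13.24 in mutants, above the control range of 12.44 to 12.60.

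Removing mutant sets 1 and 3 left mutant set 2 against the 3 control sets, with that lone set assumed to vary like the others. In that comparison 10 members were called, 8 higher and 2 lower, where 39.3% of all genes were called, 15.7% higher and 23.6% lower, a share above that of the members. Col6a3 kept a difference of 0.36 ± 0.0685, Col12a1 0.40 ± 0.0843 and Col23a1 0.30 ± 0.0888, all called. Among the members called there and not over all sets, Fmod stood at -0.63 ± 0.188 (adjusted p = 0.0236), Col7a1 at 0.45 ± 0.103 (adjusted p = 0.00646) and Col1a1 at 0.37 (adjusted p = 0.0327). Col3a1 at 0.15 ± 0.0306 (adjusted p = 0.00374) and Pcolce at 0.20 ± 0.0715 (adjusted p = 0.0478) were also called there. Thbs1 turned from -0.05 ± 0.173 over all sets to 0.37 ± 0.116 without the 2 sets (adjusted p = 0.0292) and to 0.39 ± 0.111 with the Gapdh covariate (adjusted p = 0.016). Its mutant sets lay at -0.19, 0.37 and -0.34 from the control mean. Bgn, a biglycan gene, likewise turned from 0.01 ± 0.058 to -0.15 (adjusted p = 0.0152).

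Fibrillar collagens were not called between genotypes, but all 5 had every mutant set above every control set. Col1a1 stood at 0.30 ± 0.213, Col1a2 at 0.09 ± 0.0473, Col3a1 at 0.14 ± 0.0482, Col5a1 at 0.15 ± 0.0852 and Col5a2 at 0.06 ± 0.0594. Over the whole list the sets did not overlap in 17 of 35 members, against 29.9% of all tested genes. Second probe sets of Col3a1 and Col5a2 had differences of 0.29 (adjusted p = 0.0402) and 0.23 (adjusted p = 0.0184), past the threshold where the probe sets followed here were not. Another probe set of Col5a1 stood at -0.11 (adjusted p = 0.584). Collagens VIII, XV and XVIII were not called: Col8a1 had 0.12 ± 0.229, Col15a1 0.25 ± 0.133 and Col18a1 0.09 ± 0.109. A further Col8a1 probe set stood at -0.32 (adjusted p = 0.495).

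No proteoglycan was called between genotypes. Fmod, which encodes fibromodulin, a regulator of collagen fibril assembly abundant in tendon, had the lowest difference of all 35 members, at -0.47 ± 0.182 (adjusted p = 0.0964). Its 5 further probe sets lay between -0.25 and -0.50, and the one at -0.50 had an adjusted p of 0.0237. Ogn, which encodes osteoglycin, stood at -0.12 ± 0.103 on the probe set followed here and at -0.67 (adjusted p = 0.0333) on the other. Dcn had 0.02 ± 0.154, Bgn 0.01 ± 0.058, Lum 0.04 ± 0.089 and Prelp 0.26 ± 0.331. Beside these, 3 of 4 tendon markers were lower in mutants, with a median of -0.85 and with Scx, the transcription factor of tendon progenitors, at -1.24 ± 0.159 (adjusted p = 0.000307). The log2 of the 4 markers' summed signal was 10.37 to 10.91 in the mutant distal mandible and 10.90 to 11.33 in the control, and 10.71 to 10.93 in the mutant proximal mandible and 11.63 to 12.03 in the control. In the maxilla it was 10.35 to 10.77 in the mutant distal end and 11.37 to 11.74 in the control, and 11.49 to 11.57 in the mutant proximal end and 12.06 to 12.40 in the control. The part of tendon tissue in the Fmod and Ogn values was not tested, and in bulk tissue fewer cells of a type and less RNA per cell cannot be told apart.

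Among the matricellular genes Tnc, the tenascin C gene, stood at -0.40 ± 0.163 (adjusted p = 0.123). Its 3 mutant sets lay at -0.44, -0.19 and -0.56 from the control mean. Pcolce, an enhancer of procollagen C-terminal cleavage, stood at 0.23 ± 0.0832 (adjusted p = 0.0788). In the proximal mandible Pcolce was higher in mutants, at 12.58, 12.70 and 12.75 against 12.02, 12.30 and 12.08, by 0.54 ± 0.112 (adjusted p = 0.0145). Its second probe set stood at 0.40 in that region and at 0.05 in the average. The others were close to 0: Sparc 0.01 ± 0.0548, Postn -0.03 ± 0.0869, Fn1 0.09 ± 0.0799, Vcan 0.08 ± 0.061, Thbs2 -0.10 ± 0.125 and Smoc2 -0.04 ± 0.143. Further probe sets of Fn1 and Smoc2 disagreed with these, at -0.25 (adjusted p = 0.165) and -0.53 (adjusted p = 0.101).

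Region by region, 2 members were called in the proximal mandible (Col12a1 and Pcolce, both higher), where 4.43% of all genes were called, 2.33% higher and 2.09% lower. In the distal maxilla 2 were called (Col6a3 and Col12a1, both higher), where 6.53% of all genes were, 2.48% higher and 4.06% lower. None was called in the distal mandible, with 0.491% of all genes called, 0.166% higher and 0.325% lower. None was called in the proximal maxilla, with 4.54% of all genes called, 2.40% higher and 2.14% lower. At an unadjusted p under 0.05, 5 members passed in the distal mandible, beside 15.6% of all genes, and 6 in the proximal maxilla, beside 21.6%, so neither count exceeds the share over all genes. The largest of these uncalled differences were Smoc1 in the distal mandible, at 0.94 ± 0.22 (adjusted p = 0.0611), and Tnc in the proximal maxilla, at -0.75 ± 0.22 (adjusted p = 0.0576). Without mutant sets 1 and 3, Col12a1 lost its call in the proximal mandible, at 0.49 ± 0.144 (adjusted p = 0.0565), while Pcolce, at 0.57 ± 0.122, stayed called and Bgn, at -0.29 ± 0.0699, was called lower, where 10.0% of all genes were called. In the distal mandible no member was called, where 5.81% of all genes were. In the distal maxilla that comparison called 6 members, close to the 17.8% of all genes called, with Col8a1 (0.61 ± 0.13), Col7a1 (0.73 ± 0.176) and Col23a1 (0.56 ± 0.152) higher and Thbs2 (-0.54 ± 0.131) lower beside Col6a3 and Col12a1. In the proximal maxilla it called 5, close to the 15.8% of all genes called: Col3a1 (0.21 ± 0.0523), Col7a1 (0.62 ± 0.176) and Col17a1 (0.67 ± 0.173) higher, and Bgn (-0.32 ± 0.0699) and Tnc (-0.63 ± 0.179) lower. Both proximal mandible calls were lost without mutant set 3, control set 1 or control set 3, and both distal maxilla calls without control set 2 or control set 3. Other probe sets of 5 members passed the threshold where the ones followed here did not. In the proximal mandible these were Bgn at -0.35 (adjusted p = 0.0312), Thbs2 at 0.68 (adjusted p = 0.0221) and Col1a2 at 0.83 (adjusted p = 0.0452). In the distal maxilla they were Fmod at -0.74 (adjusted p = 0.0237) and Smoc2 at -0.96 (adjusted p = 0.0473). Tests of the difference itself called no gene of 13850, either mandible against maxilla or distal against proximal end, which is 0.00% of them. At an unadjusted p under 0.05 they passed 4 members and 1077 genes between jaws, and 2 members and 980 genes between ends. Bgn came nearest, with the distal genotype difference minus the proximal one at 0.31 ± 0.0605 (adjusted p = 0.0986). Its distal group means were 12.71 (mandible) and 12.42 (maxilla) in mutants, against 12.55 and 12.26 in controls. At the proximal ends they were 12.22 and 12.22 in mutants, against 12.42 and 12.32. A further Bgn probe set passed, at 0.46 (adjusted p = 0.0237), and another did not, at 0.30 (adjusted p = 0.278). Thbs2 followed, with the mandible genotype difference minus the maxilla one at 0.49 ± 0.131 (adjusted p = 0.353). Its mandible group means were 9.83 (distal) and 11.42 (proximal) in mutants, against 9.84 and 11.12 in controls. In the maxilla they were 10.39 and 11.00 in mutants, against 10.84 and 11.25.

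Related matrix genes were read from 5 lists beside the members. Of 25 genes for collagen processing and crosslinking and 16 matrix proteases and inhibitors, none was called in the average genotype effect. At 3 of 13, the matrix receptors Cd44 (0.31 ± 0.0954), Ddr1 (0.20 ± 0.0486) and Itgav (0.27 ± 0.0494) were higher in mutants. Of 19 other collagens 3 were higher, the basement membrane chains Col4a1 (0.37 ± 0.0838) and Col4a5 (0.33 ± 0.0867) and the fibrillar chain Col5a3 (0.53 ± 0.162). Of 25 other leucine-rich and matricellular genes, Ccn3 (0.93 ± 0.177) and Sparcl1 (0.47 ± 0.111) were higher, and Thbs4 (-1.36 ± 0.324) and Ccn1 (-0.46 ± 0.121) were lower.

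The promoter windows below show the epithelial collagens, which moved together between ends, and the 2 members with strong proximal signal in the mandible that had an entry. Each is the 150 bases before a RefSeq start site in assembly GRCm38.p6, read 5′ to 3′ on the gene's strand. Searched motifs are in capitals on either strand. The Pcolce window lies mostly inside the annotated gene, whose 5′ edge is at 137611522, so it precedes an internal start site.
Col7a1, chr9:108953436-108953585, plus strand: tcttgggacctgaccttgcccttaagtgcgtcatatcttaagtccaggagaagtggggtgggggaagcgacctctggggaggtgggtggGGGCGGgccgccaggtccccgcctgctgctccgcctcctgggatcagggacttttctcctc
Col17a1, chr19:47692043-47692192, minus strand: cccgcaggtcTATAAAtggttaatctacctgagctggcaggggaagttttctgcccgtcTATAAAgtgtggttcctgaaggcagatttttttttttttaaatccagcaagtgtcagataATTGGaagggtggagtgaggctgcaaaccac
Thbs2, chr17:14694263-14694412, minus strand: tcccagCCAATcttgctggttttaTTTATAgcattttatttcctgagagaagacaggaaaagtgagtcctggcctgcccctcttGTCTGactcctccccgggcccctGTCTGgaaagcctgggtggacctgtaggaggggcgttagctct
Pcolce, chr5:137611405-137611554, minus strand: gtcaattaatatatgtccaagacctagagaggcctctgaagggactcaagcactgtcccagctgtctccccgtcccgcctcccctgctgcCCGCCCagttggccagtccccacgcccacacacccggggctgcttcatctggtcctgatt
Of the 35 members, 25 matched an entry, with 29 windows. The motifs searched, on both strands, were the TATA box as TATAAA, the CCAAT box as CCAAT, the GC box as GGGCGG, the AP-1 site as TGANTCA (N is any base) and the core bound by SMAD proteins as CAGAC, and none of these holds another. CAGAC lay in 9 of the 29 member windows and in 27.7% of all 32851 windows, GGGCGG in 10 and 28.6%, CCAAT in 6 and 24.5%, TATAAA in 5 and 7.57%, and TGANTCA in 1 and 4.24%. Thbs2 holds CAGAC at 2 places and CCAAT and TATAAA at 1 each, Col17a1 holds TATAAA at 2 and CCAAT at 1, and Col7a1 and Pcolce each hold 1 GGGCGG. A match describes letters in the window and is no evidence of a bound factor.

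Between the 2 ends of each jaw, the most regular members were the epithelial collagens. Col7a1, which forms the anchoring fibrils under the epidermis, and Col17a1, a hemidesmosome protein, were higher in the distal end in both jaws and both genotypes. For Col7a1 the distal minus proximal difference was 1.39 ± 0.16 in the mutant mandible, 1.24 ± 0.16 in the mutant maxilla, 1.35 ± 0.16 in the control mandible and 1.17 ± 0.16 in the control maxilla. For Col17a1 it was 1.36 ± 0.219 in the mutant mandible, 1.56 ± 0.219 in the mutant maxilla, 1.14 ± 0.219 in the control mandible and 1.76 ± 0.219 in the control maxilla. All 8 values were called, with adjusted p of at most 0.00138.

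Mutant Col7a1 was 10.26, 10.30 and 10.46 in the distal mandible, against 9.04, 8.95 and 8.85 in the proximal mandible, and 9.48, 10.10 and 10.05 in the distal maxilla, against 8.31, 8.82 and 8.78 in the proximal maxilla. Control Col7a1 was 10.01, 10.19 and 10.00 in the distal mandible, against 8.92, 8.60 and 8.62 in the proximal, and 9.50, 9.49 and 9.14 in the distal maxilla, against 8.14, 8.40 and 8.06 in the proximal. No distal array overlapped a proximal array of the same jaw and genotype. Mutant Col17a1 was 10.40, 10.57 and 10.56 in the distal mandible, against 8.89, 9.21 and 9.35 in the proximal, and 10.00, 10.17 and 9.65 in the distal maxilla, against 7.65, 8.83 and 8.66 in the proximal. Control Col17a1 was 10.30, 10.37 and 10.51 in the distal mandible, against 9.47, 9.14 and 9.17 in the proximal, and 10.14, 9.91 and 9.68 in the distal maxilla, against 8.25, 8.17 and 8.03 in the proximal. Here too the ends did not overlap, and the mutant proximal maxilla held the lowest array, set 1 at 7.65.

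Epithelial markers moved the same way. Of 12, 8 were higher distally in the mutant mandible, 8 in the mutant maxilla, 6 in the control mandible and 9 in the control maxilla, and none was lower. Krt5 and Krt14, keratins of the basal layer, were higher by 1.78 ± 0.195 and 1.87 ± 0.16 in the mutant distal mandible, and by 1.92 ± 0.195 and 1.80 ± 0.16 in the control distal maxilla. The log2 of the summed signal of the 12 markers was 15.18 to 15.46 in the mutant distal mandible, against 13.90 to 14.18 in the mutant proximal mandible, and 14.70 to 15.09 in the mutant distal maxilla, against 13.87 to 14.29 in the proximal. In controls it was 15.07 to 15.31 in the distal mandible, against 14.10 to 14.33 in the proximal, and 14.80 to 15.04 in the distal maxilla, against 13.31 to 13.58 in the proximal. The ends did not overlap in this sum in either jaw or genotype, and all 12 markers were on the array. The part of epithelium in the 2 collagens' values was not tested. Over the 8 group means, the genes most like Col17a1 were Perp (r = 0.995), Rhbg (0.994), Dmkn (0.992), Trp63 (0.989) and Syk (0.989), and those most like Col7a1 were Edaradd (0.996), Plch2 (0.995), Hs3st6 (0.993), Dsp (0.992) and Pgr (0.990). For Postn, which encodes periostin, the nearest were Zfyve21 (0.896), Ercc2 and Txn1 (both 0.886), Shisa9 (0.875) and Kcnab3 (0.872). These are descriptions over 8 groups that share arrays, with no test.

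**Figure D3:**
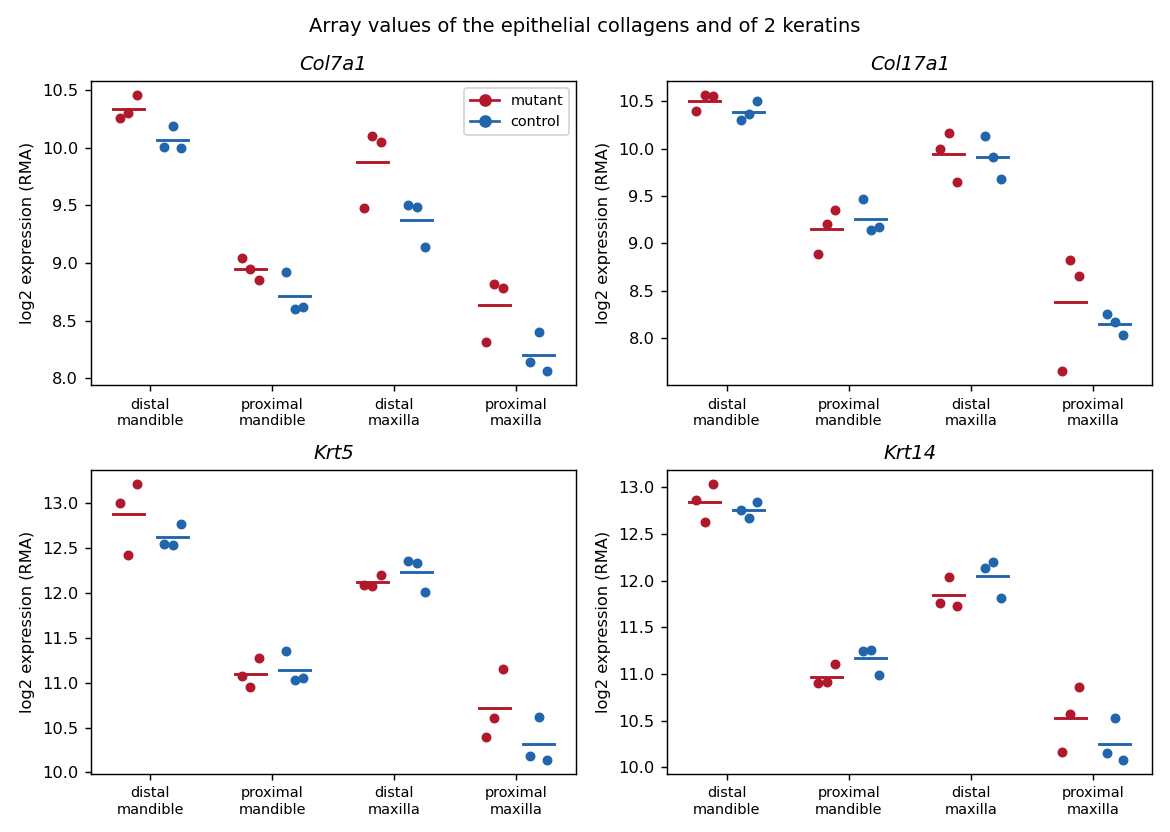
Log2 expression of Col7a1, Col17a1 and the basal keratins Krt5 and Krt14 on each of 24 arrays, in mutant (red) and control (blue) jaws of 4 regions, with group means as lines. In each of the 4 genes the distal arrays lie above the proximal arrays of the same jaw and genotype, as for mutant Col7a1 in the mandible at 10.26 to 10.46 against 8.85 to 9.04.

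In the mandible the ends differed for 15 of 35 members in mutants, 7 higher distally and 8 lower, where 15.9% of all genes were called, 7.57% higher and 8.33% lower. In controls they differed for 11, 4 higher and 7 lower, where 13.3% of all genes were called, 6.24% higher and 7.08% lower. Both shares were larger among the members than among all genes. The 2 genotypes called the same direction for each member they shared. Those lower distally in both were Col14a1, Ogn, Sparc, Fn1, Thbs2, Smoc2 and Pcolce, and Col12a1 was also lower in mutants. Those higher distally in both were Col7a1, Col17a1, Fmod and Vcan, and Bgn, Col23a1 and Smoc1 were also higher in mutants. With the replicate number as a block, which pairs these arrays, 17 were called in mutants, where 28.5% of all genes were, and 14 in controls, where 23.8% were. The block added Col18a1 at 0.37 ± 0.12 (adjusted p = 0.0329) and Prelp at -1.06 ± 0.361 (adjusted p = 0.0395) in mutants. In controls it added Col1a2 at -0.16 ± 0.0526 (adjusted p = 0.0383), Col5a1 at -0.29 ± 0.0959 (adjusted p = 0.0392) and Dcn at -0.49 ± 0.163 (adjusted p = 0.0407).

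Smoc2, a relative of Smoc1, had the largest difference. In mutants it stood at 10.85, 10.40 and 10.48 distally, against 12.25, 12.31 and 12.49 proximally, lower by 1.77 ± 0.165 (fold 0.293, adjusted p = 1.09e-06). In controls it stood at 10.72, 10.10 and 10.36 distally, against 12.23, 11.98 and 12.19 proximally, lower by 1.73 ± 0.165 (adjusted p = 3.4e-06). Its neighbour on chromosome 17, Thbs2, an inhibitor of angiogenesis that binds matrix metalloproteinases, ran the same way, with 3 annotated genes and none coding for protein between them. Mutant Thbs2 was 10.19, 9.92 and 9.37 distally, against 11.44, 11.43 and 11.38 proximally (-1.59 ± 0.141), and control Thbs2 was 9.66, 9.90 and 9.95 distally, against 11.07, 11.25 and 11.05 proximally (-1.28 ± 0.141). The ends were fully apart for both genes. Pcolce had 11.63, 11.57 and 11.53 in the mutant distal mandible, against 12.58, 12.70 and 12.75 proximally (-1.10 ± 0.0927), and 11.33, 11.39 and 11.48 in the control, against 12.02, 12.30 and 12.08 (-0.74 ± 0.0927). No distal array of Pcolce reached a proximal one. The test of the difference of end gaps between genotypes, averaged over jaws, called no member on the probe sets followed here.

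**Figure D4:**
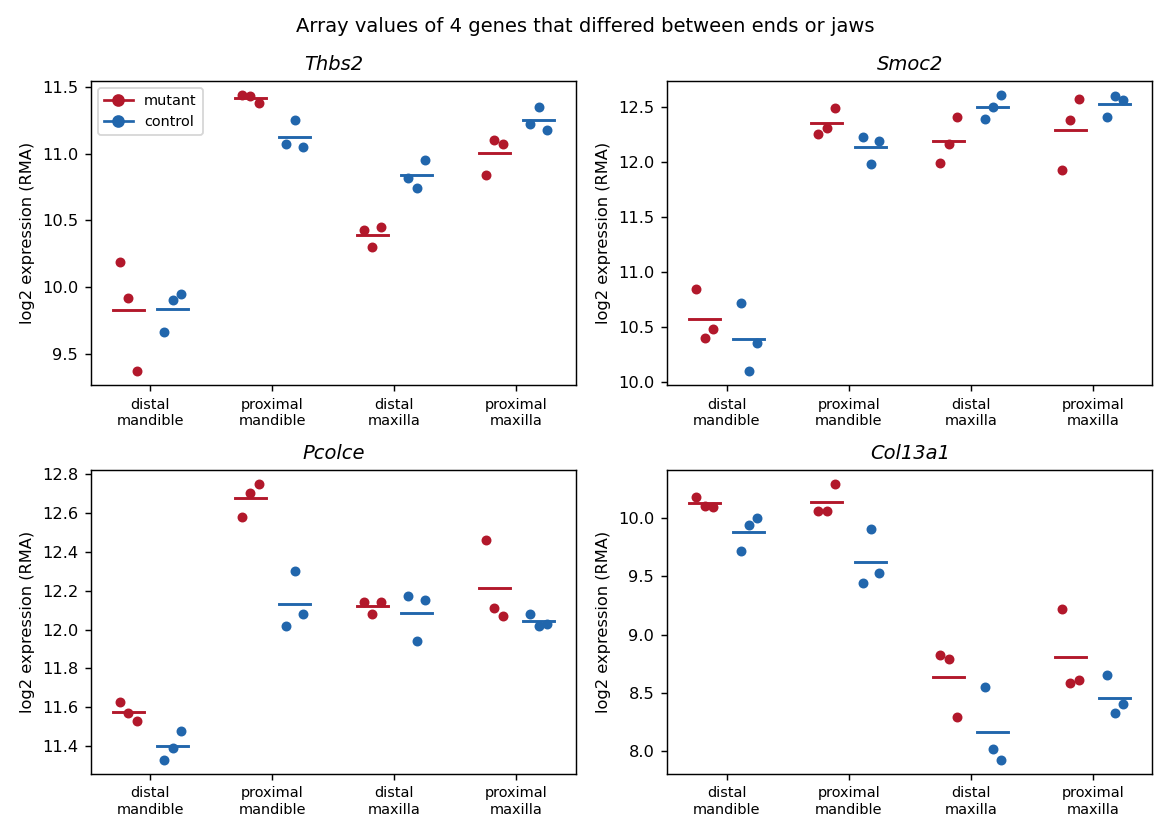
Log2 expression of Thbs2, Smoc2, Pcolce and Col13a1 on each of 24 arrays, in mutant (red) and control (blue) jaws of 4 regions, with group means as lines. Smoc2 in the distal mandible lies between 10.10 and 10.85 on all 6 arrays, while every other region lies between 11.93 and 12.61.

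Col14a1 was lower in the distal mandible, at 9.33, 9.46 and 9.38 in mutants against 9.96, 10.20 and 10.83 proximally (-0.94 ± 0.297), and at 8.87, 8.84 and 9.31 in controls against 10.76, 9.46 and 10.63 (-1.27 ± 0.297). Ogn was lower there by 0.60 ± 0.115 in mutants, at 12.21, 12.17 and 11.97 against 12.72, 12.77 and 12.67, and by 0.50 ± 0.115 in controls, at 12.15, 12.16 and 12.56 against 12.87, 12.72 and 12.80. For both genes the distal arrays lay below the proximal ones in each genotype. The Col14a1 call was lost under 5 of 11 alternative fits in mutants and 2 of 11 in controls. Its second probe set was not called, at -0.68 (adjusted p = 0.21) in mutants and -0.99 (adjusted p = 0.0652) in controls. Sparc, a collagen-binding protein of mineralising tissue, differed by -0.30 ± 0.0678 in mutants and -0.29 ± 0.0678 in controls, and Fn1, the fibronectin gene, by -0.31 ± 0.0974 in mutants and -0.34 ± 0.0974 in controls. Without mutant set 3 the mutant Fn1 difference was -0.20 ± 0.1 (adjusted p = 0.292), and the call was lost. Fmod went the other way, higher by 0.95 ± 0.227 in mutants, at 9.31, 9.01 and 9.58 against 8.11, 8.29 and 8.65, and by 0.79 ± 0.227 in controls, at 9.31, 9.68 and 9.58 against 8.36, 9.33 and 8.52. The ends were apart for mutant Fmod, and in controls they overlapped, with 1 proximal array at 9.33. Vcan, the hyaluronan-binding proteoglycan versican, was higher by 0.44 ± 0.0759 in mutants, at 13.57, 13.68 and 13.43 against 13.10, 13.16 and 13.10, and by 0.36 ± 0.0759 in controls, at 13.36, 13.52 and 13.37 against 13.01, 13.15 and 13.03. Called in mutants and not in controls were Bgn at 0.50 ± 0.0921, Col23a1 at 0.46 ± 0.115, Smoc1 at 0.60 ± 0.202 and Col12a1 at -0.46 ± 0.104. The Smoc1 call was lost under 8 of 11 alternative fits, with adjusted p up to 0.302. The test of the difference between genotypes called none of these members on the probe sets followed here. A further Bgn probe set was called in that test and another was not, as given above.

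Beside these results, all 7 skeletal muscle markers were lower in the distal mandible, with medians of -2.60 in mutants and -3.87 in controls. Their log2 summed signal was 12.49 to 12.53 in the mutant distal mandible, against 14.48 to 14.67 proximally, and 11.00 to 12.38 in the control distal mandible, against 14.40 to 15.06. Bone markers were lower for 2 of 4 in mutants and 1 of 4 in controls, with a summed signal of 12.60 to 13.27 in the mutant distal mandible, against 14.31 to 14.38 proximally, and of 12.81 to 13.34 in the control distal mandible, against 13.04 to 13.98. Of 25 collagen processing genes, 13 were lower distally in the mutant mandible and 5 in the control mandible, and none was higher, with Lox, the collagen crosslinking oxidase, at -0.90 ± 0.166 and -1.01 ± 0.166. The part of muscle and bone in the members' values was not tested.

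In the maxilla fewer members differed between ends. In mutants 3 were called (Col7a1 and Col17a1 higher distally, Thbs2 lower at -0.61 ± 0.141), where 5.15% of all genes were called, 2.48% higher and 2.66% lower. With the replicate number as a block 5 members were called, where 11.1% of all genes were, adding Bgn at 0.20 ± 0.0498 (adjusted p = 0.0195) and Col23a1 at 0.39 ± 0.106 (adjusted p = 0.0299). Mutant Thbs2 stood at 10.43, 10.30 and 10.45 distally, against 10.84, 11.10 and 11.07 proximally, and control Thbs2 at 10.82, 10.74 and 10.95, against 11.22, 11.35 and 11.18, a difference of -0.41 ± 0.141 (adjusted p = 0.0999). In controls 4 were called, where 6.06% of all genes were, 3.37% higher and 2.69% lower. They were the 2 epithelial collagens, higher distally, and Prelp and Tnc, lower. Prelp, a leucine-rich anchor of basement membranes and of cartilage matrix, was at 5.98, 6.02 and 5.64 in the control distal maxilla, against 7.20, 6.96 and 8.05 proximally (-1.52 ± 0.409, adjusted p = 0.0301). Its second probe set stood at -0.27 there (adjusted p = 0.556). The Prelp call was lost with the mean of its probe sets and, like that of Tnc, when any 1 control set was left out. Tnc was at 10.47, 10.21 and 10.32 distally, against 11.21, 11.31 and 11.18 proximally (-0.90 ± 0.194, adjusted p = 0.00718), and in mutants at 10.11, 10.32 and 9.64 distally, against 10.08, 10.61 and 10.77 (-0.46 ± 0.194, adjusted p = 0.221). Control arrays did not overlap for either gene, and mutant Tnc did. The block, which called 11.4% of all genes, added Col18a1 at 0.46 ± 0.12 (adjusted p = 0.0234) and Col23a1 at 0.36 ± 0.106 (adjusted p = 0.0383) in controls. Beside them, 7 of 8 cartilage markers were lower in the control distal maxilla, with a median of -3.11 and Col2a1 at -3.24 ± 0.777. In the mutant maxilla none of the 8 was called, with a median of -1.48. Their log2 summed signal was 11.21 to 14.98 in the mutant distal maxilla, against 13.58 to 14.66 proximally, and 11.15 to 11.44 in the control distal maxilla, against 13.99 to 14.85. In the mutant distal maxilla 1 array stood apart, that of set 1, which was highest for all 8 markers. Col2a1 was 13.10 on it, against 9.13 and 8.93 in sets 2 and 3, and Prelp was 7.47, against 6.03 and 5.82. The part of cartilage in the Prelp and Tnc values was not tested.

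**Figure D5:**
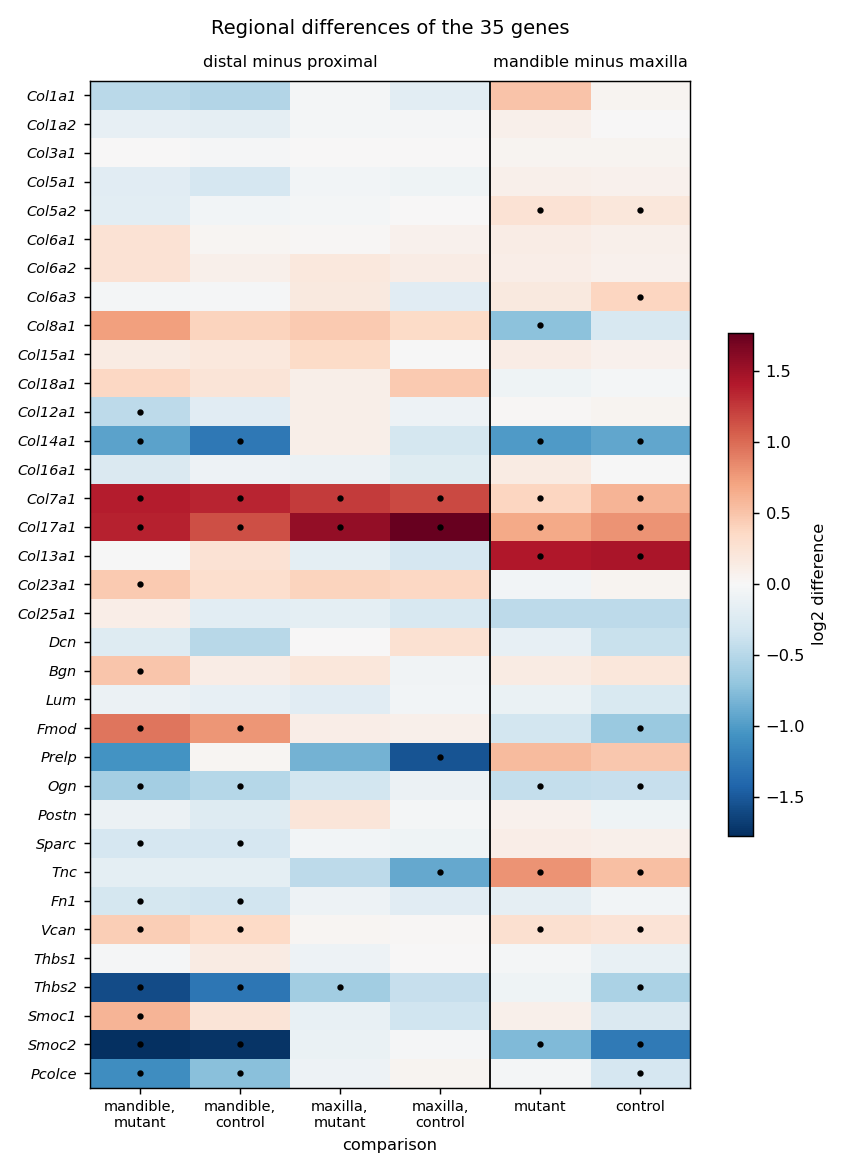
Log2 difference of each of the 35 genes between ends (distal minus proximal, 4 columns) and between jaws (mandible minus maxilla, 2 columns), with red for higher and blue for lower in the distal end or the mandible, and a dot where the difference was called. Col7a1 and Col17a1 carry a dot in all 6 columns, Smoc2 runs from -1.77 in the mutant mandible to close to 0 in the maxilla, and Col13a1 reaches 1.42 and 1.45 between jaws.

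Between the jaws, averaged over ends, 10 members were called in mutants, 6 higher in the mandible and 4 lower, where 10.2% of all genes were called, 3.99% higher and 6.17% lower. In controls 13 were called, 7 higher and 6 lower, where 9.22% of all genes were, 3.88% higher and 5.34% lower. Higher in the mandible in both genotypes were Col5a2, Col7a1, Col17a1, Col13a1, Tnc and Vcan, and lower in both were Col14a1, Ogn and Smoc2. Col13a1, a collagen that spans the membrane at cell junctions, was the largest, at 1.42 ± 0.133 in mutants and 1.45 ± 0.133 in controls (folds of 2.67 and 2.72). It ran from 10.06 to 10.30 in the 6 mutant mandible arrays, against 8.29 to 9.22 in the 6 mutant maxilla arrays, and from 9.44 to 10.00 in control mandibles, against 7.92 to 8.65 in control maxillae. The jaws were fully apart in both genotypes. Between its ends Col13a1 was not called in any of the 4 comparisons.

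Smoc2 was lower in the mandible by 0.78 ± 0.117 in mutants and 1.25 ± 0.117 in controls. Beside the mandible values above, the maxilla had 11.99, 12.16 and 12.41 in the mutant distal end and 12.39, 12.50 and 12.61 in the control distal end, and 11.93, 12.38 and 12.57 in the mutant proximal end and 12.41, 12.60 and 12.56 in the control. The proximal mandible, at 11.98 to 12.49, overlapped the maxilla, at 11.93 to 12.61, and the distal mandible did not. Col14a1 differed by -1.01 ± 0.21 in mutants and -0.92 ± 0.21 in controls, with distal maxilla values of 10.77, 10.87 and 11.10 in mutants and 10.23, 10.27 and 10.74 in controls, and proximal values of 10.28, 11.28 and 10.89 and of 10.46, 10.93 and 10.79. Ogn differed by -0.42 ± 0.0814 and -0.40 ± 0.0814, Vcan by 0.28 ± 0.0537 and 0.24 ± 0.0537, and Col5a2 by 0.26 ± 0.0476 and 0.20 ± 0.0476. The second Col5a2 probe set was not called, at 0.11 (adjusted p = 0.368) in mutants and 0.14 (adjusted p = 0.285) in controls. Nor was the second of Ogn, at -0.37 (adjusted p = 0.38) and -0.38 (adjusted p = 0.447). The control Col5a2 call was lost without any 1 control set and with the mean of its probe sets. Tnc was higher in the mandible by 0.80 ± 0.137 in mutants, with mandible arrays of 10.57 to 11.32 against maxilla arrays of 9.64 to 10.77, and by 0.53 ± 0.137 in controls. Col7a1 and Col17a1 were higher by 0.39 ± 0.113 and 0.67 ± 0.155 in mutants and by 0.60 ± 0.113 and 0.79 ± 0.155 in controls, beside 3 of 12 epithelial markers higher in mutants and 5 in controls. Without mutant set 1 the mutant Col7a1 difference was 0.20 ± 0.0991 (adjusted p = 0.292), and that call was also lost without mutant set 3 or any 1 control set. Without control set 2 the control Vcan difference was 0.14 ± 0.0624 (adjusted p = 0.332).

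The rest were called in 1 genotype. In mutants Col8a1, a short-chain collagen of vessel walls and basement membranes, was lower in the mandible by 0.73 ± 0.186. Without mutant set 1 that difference was -0.33 ± 0.133 (adjusted p = 0.181), and without mutant set 2 it was -0.79 ± 0.242 (adjusted p = 0.0502), so the call was lost both ways. In controls Col6a3 was higher by 0.38 ± 0.068, and Fmod was lower by 0.66 ± 0.161, Thbs2 by 0.56 ± 0.0994 and Pcolce by 0.30 ± 0.0656. The test of the difference between genotypes called none of these. With the block in mutants, where 19.2% of all genes were called, Col25a1 at -0.46 ± 0.123 (adjusted p = 0.0179) and Bgn at 0.14 ± 0.0352 (adjusted p = 0.0119) were also called. Muscle markers were lower in the mandible for 4 of 7 in mutants and for all 7 in controls, and bone markers were higher for 4 of 4 in mutants and 3 of 4 in controls. The tendon factor Scx was lower in the mandible by 0.91 ± 0.148 in mutants and 1.20 ± 0.148 in controls. The log2 summed muscle signal was 12.49 to 14.67 in mutant mandibles, against 12.92 to 15.48 in mutant maxillae, and 11.00 to 15.06 in control mandibles, against 14.47 to 15.30 in control maxillae. For bone it was 12.60 to 14.38 in mutant mandibles, against 11.22 to 12.20 in mutant maxillae, and 12.81 to 13.98 in control mandibles, against 10.76 to 12.75 in control maxillae. Their part in the members' values was not tested.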

How the data were processed

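The deposited values are log2 expression made with RMA from 24 arrays, per the submitters' processing notes (no source used here states its version, or whether embryos were pooled). Of 45101 probe sets, 34958 name 1 gene symbol in the platform annotation, 932 several and 9211 none. Each of 18194 genes took its probe set with the highest mean, and 13850 exceeded the 40th percentile of their array on at least 3 arrays. limma 3.58.1 in R 4.3.3 was fitted with 1 coefficient per group, the set as a random block (correlation 0.401, statmod) for genotype comparisons and no block for region comparisons. Calls are Benjamini-Hochberg adjusted p under 0.05 over 13850 genes, and errors are SE unless named. In data simulated for the average genotype effect over 13850 genes, the block gave 12 false calls and arrays as replicates gave 415. The block recovered 39 of 50 genes changed by 0.5 and 48 of 50 changed by 1. The simulation gave every gene the same set correlation of 0.4, which is what the block model assumes. It therefore cannot show how many calls on the real sets are false. The replicate number was checked as a pairing: of 36 same-genotype, same-number correlations of deviations from group means, 34 exceeded 0.1. Every pair exceeded it for the end comparisons and the mutant jaw comparison, where the numbers were taken as pairs, from the values and not the labels. The members, lists and tests were chosen with earlier results of these data known. Each member was named by the rule that all called members are named, with others only to complete a role or where probe sets disagree. RefSeq tables (GRCm38.p6) gave promoters and gene neighbours. Alternatives tried are in the closing section. The number of arrays limits precision.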

Additional observations from a re-analysis of the deposited data

How the results depend on the processing

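Most alternative values kept the call, but most results lost it at least once. The 64 called member results, between genotypes, ends and jaws, had 724 alternative values. Of these, 609 stayed called in the same direction, 114 lost the call and 1 reversed. Only 26 of the 64 results never lost the call, all of them between ends or jaws. The reversal was Col12a1 between genotypes in the distal maxilla, at -0.06 with the mean of all its probe sets. The count of members called in the average genotype effect was 15 with arrays as replicates, 7 with the Gapdh covariate, 10 without mutant sets 1 and 3, 0 with 1 value per set, 2 with the mean of all probe sets, and 0 to 17 when 1 set was left out (17 without mutant set 2, 1 without mutant set 3 or control set 2, 0 without control set 1 or 3). In the distal mandible it was 1 with arrays as replicates and 0 to 4 leaving out sets; in the proximal mandible 1 with the mean of all probe sets and 0 to 3 leaving out sets (0 without mutant set 3, control set 1 or control set 3). In the distal maxilla it was 6 without mutant sets 1 and 3, 1 with the mean of probe sets and 0 to 6 leaving out sets (6 without mutant set 2, 0 without control set 2 or 3). In the proximal maxilla it was 1 with arrays as replicates or the Gapdh covariate, 5 without mutant sets 1 and 3 and 0 to 2 leaving out sets. For the difference of genotype effects between jaws and between ends, leaving out sets gave 0 to 1. With a replicate block the mutant maxilla end comparison called 5, and the control jaw comparison called 17. For control jaws the numbers were not taken as pairs, because control set 2 had same-number correlations between jaws as low as 0.00. Leaving out sets gave 7 to 16 for control jaws (7 without control set 2 or 3), 5 to 15 for control mandible ends (5 without control set 1) and 2 to 5 for control maxilla ends (2 without any 1 control set). The block lost no call of a member. Leaving out 1 set also moved the share of all genes called. In the average genotype effect it was 43.1% without mutant set 2 and 5.13% without mutant set 3. It was 1.79%, 3.18% and 2.42% there without control sets 1, 2 and 3. The distal mandible ran from 0.00722% to 21.2% and the proximal mandible from 0.188% to 13.4%. The distal maxilla ran from 0.137% to 24.6% and the proximal maxilla from 0.245% to 19.2%, each highest without mutant set 2. For control jaws the share ran from 3.45% to 11.9%, for control mandible ends from 5.66% to 19.6% and for control maxilla ends from 1.57% to 8.82%. The cause of the lost calls was not tested. Over all genes, the average genotype effect called 1612, against 4671 with arrays as replicates, 3960 with the Gapdh covariate, 5448 without mutant sets 1 and 3, 80 with 1 value per set and 1002 on averaged probe sets. The distal mandible called 68, against 124, 467, 804 and 41 under arrays as replicates, the covariate, the 2 sets left out and the mean of probe sets, and 108 with quantile normalization again. The covariate, the 2 sets left out and the mean of probe sets called 1882, 1390 and 292 in the proximal mandible (613 otherwise), 2756, 2463 and 490 in the distal maxilla (905) and 2449, 2192 and 351 in the proximal maxilla (629). The test of the genotype difference between jaws called 2 genes with the covariate and 6 without the 2 sets, and that between ends called 4 with the mean of probe sets and 3 with quantile normalization again. The replicate block and the Gapdh covariate called 2660 and 3129 genes for mutant jaws (1406 otherwise), 3943 and 3525 for mutant mandible ends (2202), 1540 and 1427 for mutant maxilla ends (713), 3298 and 3259 for control mandible ends (1844) and 1582 and 1404 for control maxilla ends (839). For control jaws (1277) the block called 1955. The covariate in region comparisons was chosen after seeing the data, and it moved none of the member counts there by over 1.5 times.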
